A study of Homo sapiens with 7 samples.

Results

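Nuclear genes of mitochondrial complex I were described in HK-2 cells that had received an siRNA against GLUT2. The members were the rows of the count table whose symbol is NDUF followed by A, B, C, S, V, AF or AB and a number, without NDUFA4, which is now counted as a subunit of cytochrome c oxidase. This gave 44 genes of 33694 in the table: 37 subunits and 7 assembly factors. All 44 passed the filter on low counts, which kept 12404 genes in all. NDUFAF8 stands in the table under its older symbol C17orf89 and was therefore no member. Its log2 fold change was 0.11 ± 0.11 (adjusted p = 0.509).

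HK-2 is an immortalised epithelial line from the human kidney proximal tubule, and GLUT2, encoded by SLC2A2, is a facilitative glucose transporter. The 3 siGLUT2 libraries (replicates 2, 3 and 4) came from HK-2 cells given 50 nM siRNA against GLUT2, and the 4 scrambled libraries (replicates 1 to 4) from HK-2 cells given 50 nM siRNA of scrambled sequence. Both groups were transfected in 6-well plates with RNAiMAX, and RNA was taken after 96 h. The study's design text calls the control cells WT, while the labels of these 4 samples name the scrambled siRNA, and the labels are followed here. The labels name the replicates biological, all of 1 cell line, and do not give the number of siRNAs used against GLUT2 or their sequences. The study has 1 comparison, of GLUT2 knockdown with scrambled siRNA.

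Complex I is the entry point of electrons from NADH into the respiratory chain. Its peripheral arm reaches into the mitochondrial matrix, where the N module takes electrons from NADH and the Q module hands them to ubiquinone, and its membrane arm pumps protons. Proximal tubule cells depend heavily on oxidative phosphorylation. The core subunits carry out catalysis and are partly encoded by mitochondrial DNA, the supernumerary subunits surround and stabilise the core, and assembly factors act on intermediates and are absent from the finished enzyme.

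Levels are in CPM, a library's counts scaled to a common total after TMM scaling, and are given by library in the order of the replicate numbers. Changes are on the log2 scale, siGLUT2 over scrambled, with their SE. The p-values are from edgeR's quasi-likelihood test, adjusted by the Benjamini-Hochberg method for the whole table of 12404 genes, and a gene is called where the adjusted p is below 0.05. The reads come from a 3' method and are not divided by transcript length, so a level is compared between libraries and not between genes. In bulk RNA, fewer cells of a type and less RNA per cell cannot be told apart. SLC2A2 had 0, 0 and 0 counts in the siGLUT2 libraries, against 13, 13, 7 and 17 counts in the scrambled libraries (adjusted p = 0.0085). These counts are few, and without scrambled replicate 4 the adjusted p was 0.0538, in a fit with no low-count filter because the filter then removed the gene.

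Of the 44 genes, 9 fell (20.5%), 4 rose (9.09%) and 31 were not called. The fallen genes were NDUFV1, NDUFS3, NDUFB8, NDUFA9, NDUFB7, NDUFA11, NDUFA10, NDUFV3 and NDUFA2, all of them subunits. The risen genes were the assembly factor NDUFAF4 and the subunits NDUFC1, NDUFB3 and NDUFA5. Over all tested genes, 28.3% were called, with 14.4% lower and 13.9% higher, so that the 29.5% called among the complex I genes lies near the background. The siGLUT2 and scrambled libraries did not overlap for 16 of the 44 genes (36.4%, 10 lower and 6 higher), against 35.1% of all tested genes. For the 9615 tested genes in the CPM range of the 44, these shares were somewhat larger. Of them 33% were called, with 16.7% lower and 16.3% higher, and 38.9% did not overlap. The median log2 fold change was -0.03 over the 44 genes, with a range from -1.32 to 0.80, and -0.0029 over all tested genes. With each library left out in turn, the median over the 44 genes lay between -0.13 (without siGLUT2 replicate 3) and 0.0038 (without siGLUT2 replicate 2). The set thus held single genes that moved in both directions.

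**Figure D1:**
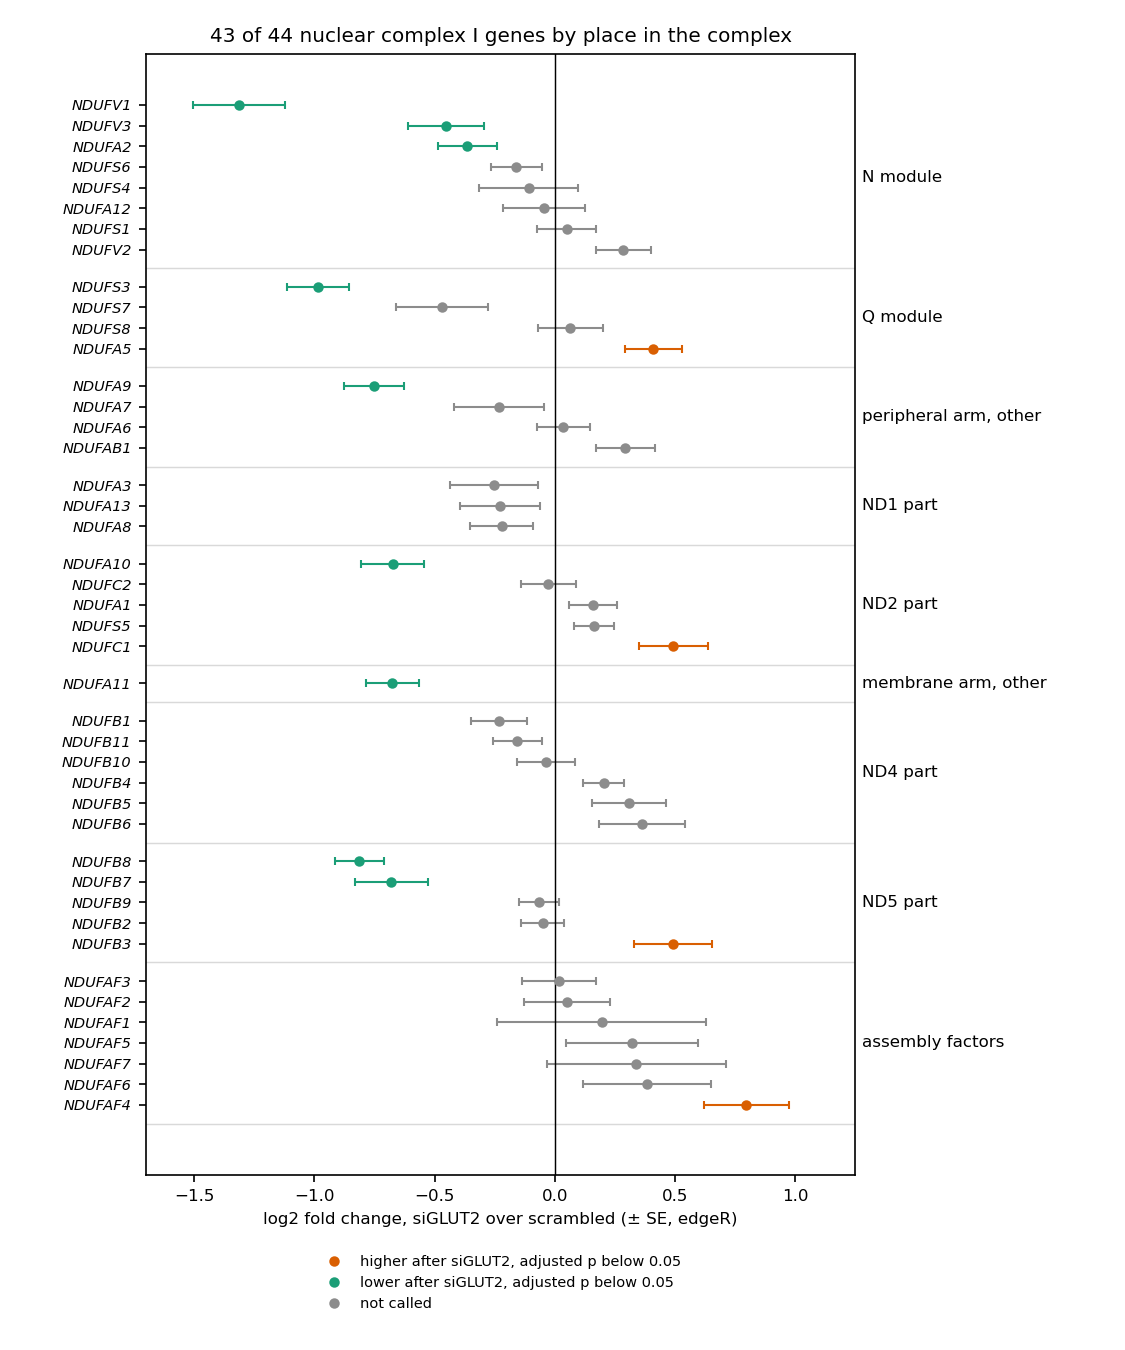
Log2 fold change of siGLUT2 over scrambled (points) with its standard error (bars) for 43 of the 44 nuclear complex I genes, grouped by place in the complex. The 9 genes called lower lie in the peripheral and membrane arms and range from -1.32 to -0.36, and the 4 called higher range from 0.41 to 0.80.

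The N module, which oxidises NADH, held 3 called genes among 8 (37.5%, against 28.3% of all tested genes), all lower. The median log2 fold change of the module was -0.13. NDUFV1 (ENSG00000167792, GRCh38 chr11:67605653-67612554, plus strand) encodes the subunit that binds NADH and carries the flavin. It had 22.2, 40.1 and 51.4 CPM in the siGLUT2 libraries, against 108, 88.7, 90.7 and 90.5 CPM in the scrambled libraries. Every siGLUT2 library lay below every scrambled one, with siGLUT2 replicate 2 the lowest. The means were 37.9 ± 14.8 CPM after siGLUT2 and 94.6 ± 9.29 CPM in scrambled cells (SD, n = 3 and n = 4), a log2 fold change of -1.32 ± 0.19 (adjusted p = 1.8e-05). This was the largest change among the 44 genes in either direction.

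NDUFV2 encodes the iron-sulfur subunit that sits beside NDUFV1 in the complex. It had 102, 113 and 112 CPM after siGLUT2, against 98.8, 80.0, 85.4 and 93.8 CPM in scrambled cells. The siGLUT2 libraries were all above the scrambled ones, yet the gene was not called (0.29 ± 0.11, adjusted p = 0.0671), although it was without siGLUT2 replicate 2 (adjusted p = 0.0386). The CPM ratio of NDUFV1 over NDUFV2 was 0.217, 0.355 and 0.460 in the siGLUT2 libraries and 1.10, 1.11, 1.06 and 0.964 in the scrambled libraries. Transcripts of these neighbouring subunits thus stood in a different ratio in the groups, with no overlap. This ratio was chosen after the values were seen. It had to differ, because the genes were already apart between the groups in opposite directions, and it adds no further support.

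NDUFS1, the large iron-sulfur core subunit of the N module, had 72.8, 77.5 and 89.1 CPM after siGLUT2, against 82.1, 70.6, 76.5 and 79.4 CPM in scrambled cells. The groups overlapped (0.05 ± 0.12, adjusted p = 0.807). NDUFV3, a small supernumerary subunit, had 32.6, 38.5 and 32.5 CPM after siGLUT2, against 46.1, 45.0, 53.8 and 44.3 CPM in scrambled cells (-0.45 ± 0.16, adjusted p = 0.0365). NDUFA2, a supernumerary subunit with a thioredoxin-like fold, had 86.3, 71.8 and 76.8 CPM after siGLUT2, against 94.6, 114, 93.0 and 101 CPM in scrambled cells (-0.36 ± 0.12, adjusted p = 0.0281). Neither NDUFV3 nor NDUFA2 overlapped between groups, but both calls were close to the threshold. NDUFV3 was no longer called without any 1 of the scrambled replicates (adjusted p = 0.0696, 0.0605, 0.124 and 0.061 without replicates 1 to 4), without siGLUT2 replicate 2 (0.0673) or without siGLUT2 replicate 4 (0.0739). NDUFA2 was no longer called without scrambled replicate 2 (adjusted p = 0.108), scrambled replicate 4 (0.07) or siGLUT2 replicate 3 (0.106). NDUFS4, the lowest NDUFS gene, had 28.99, 50.1 and 25.0 CPM after siGLUT2, against 33.9, 35.3, 40.2 and 40.7 CPM in scrambled cells (-0.11 ± 0.21, adjusted p = 0.745). Its siGLUT2 libraries lay on both sides of the scrambled range. NDUFS6, a zinc-binding subunit, and NDUFA12 were not called either (-0.16 ± 0.11 and -0.05 ± 0.17).

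The Q module, which reduces ubiquinone, held 1 lower and 1 higher gene among 5 (40% called, against 28.3% of all tested genes). NDUFS3 (ENSG00000213619, GRCh38 chr11:47565336-47584562, plus strand) encodes a core subunit that enters at the start of assembly. It had 56.8, 56.5 and 48.0 CPM after siGLUT2, against 121, 96.1, 103 and 106 CPM in scrambled cells. The siGLUT2 libraries lay close together and far under the scrambled ones (53.8 ± 4.99 CPM against 106 ± 10.4 CPM, SD, n = 3 and n = 4), and the log2 fold change was -0.99 ± 0.13 (adjusted p = 4.4e-06).

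NDUFS7, the subunit with the last iron-sulfur cluster before ubiquinone, had 20.8, 36.7 and 35.7 CPM after siGLUT2, against 46.9, 39.8, 47.1 and 38.6 CPM in scrambled cells. The groups did not overlap, but the gene was not called (-0.47 ± 0.19, adjusted p = 0.0726). It was called without siGLUT2 replicate 3 (adjusted p = 0.0453), without siGLUT2 replicate 4 (0.0371) and with no low-count filter (0.0474). NDUFS8, another iron-sulfur core subunit, had 61.7, 81.6 and 92.6 CPM after siGLUT2, against 79.9, 76.8, 69.7 and 74.4 CPM in scrambled cells, with siGLUT2 libraries on both sides of the scrambled range (0.07 ± 0.14, adjusted p = 0.769). NDUFA5, a supernumerary subunit bound to the Q module, had 129, 109 and 119 CPM after siGLUT2, against 84.1, 87.5, 81.2 and 106 CPM in scrambled cells (0.41 ± 0.12, adjusted p = 0.0119). All siGLUT2 libraries were above the scrambled ones, with scrambled replicate 4 the nearest. Over the 7 nuclear core subunits of both modules, 2 fell and 0 rose by edgeR, limma-voom and DESeq2 alike. The share called, 28.6%, lies near the 28.3% of all tested genes. Among the 30 supernumerary subunits 7 fell and 3 rose (33.3% called), with a median of -0.09.

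Of the 4 supernumerary subunits of the peripheral arm that schemes of the complex place differently, 1 was called. NDUFA9, an NADPH-binding subunit near the junction of the arms, had 75.2, 104 and 90.7 CPM after siGLUT2, against 142, 172, 162 and 130 CPM in scrambled cells (-0.75 ± 0.13, adjusted p = 0.000102). The groups were well apart. NDUFAB1, the mitochondrial acyl carrier protein, had 106, 94.4 and 84.7 CPM after siGLUT2, against 76.2, 87.1, 71.8 and 75.3 CPM in scrambled cells. Its groups overlapped through siGLUT2 replicate 4, and it was not called (0.29 ± 0.12, adjusted p = 0.0804) except without that library (adjusted p = 0.032). NDUFA7, the lowest NDUFA gene, had 23.2, 34.6 and 30.6 CPM after siGLUT2, against 31.1, 35.6, 31.1 and 41.1 CPM in scrambled cells (-0.23 ± 0.19, adjusted p = 0.392). NDUFA6 had a log2 fold change of 0.04 ± 0.11. NDUFA7 overlapped between groups, as did NDUFA6.

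In the membrane arm, the called genes sat in the ND2 and ND5 parts, which are named after their mitochondrially encoded core subunits, and in NDUFA11. In the proximal ND2 part, NDUFA10, which has a nucleoside kinase fold and faces the matrix, had 54.7, 56.8 and 76.5 CPM after siGLUT2, against 104, 92.8, 102 and 101 CPM in scrambled cells (-0.68 ± 0.13, adjusted p = 0.000502). NDUFC1, a small subunit with a single membrane helix, had 83.7, 84.2 and 78.3 CPM after siGLUT2, against 64.9, 52.2, 69.6 and 46.2 CPM in scrambled cells (0.49 ± 0.14, adjusted p = 0.0128). These genes of the same part thus moved in opposite directions, each without overlap. Their CPM ratio, NDUFA10 over NDUFC1, was 0.654, 0.675 and 0.976 after siGLUT2 and 1.603, 1.78, 1.47 and 2.19 in scrambled cells. This ratio had to differ, because each gene was already apart between the groups, and it adds no further support. The NDUFC1 call was lost without scrambled replicate 2 (adjusted p = 0.0524) or scrambled replicate 4 (0.0577). NDUFC2, its partner by name, had 105, 126 and 99.1 CPM after siGLUT2, against 104, 110, 120 and 115 CPM in scrambled cells (-0.03 ± 0.11, adjusted p = 0.889).

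Also in the ND2 part, NDUFS5, the NDUFS gene with the highest CPM, had 467, 545 and 467 CPM after siGLUT2, against 440, 464, 456 and 401 CPM in scrambled cells. All siGLUT2 libraries were above the scrambled ones by a small margin (0.16 ± 0.09, adjusted p = 0.163). NDUFA1, the NDUFA gene with the highest CPM, had 281, 252 and 223 CPM after siGLUT2, against 235, 206, 250 and 210 CPM in scrambled cells (0.16 ± 0.10, adjusted p = 0.246), and its groups overlapped. NDUFA11, a membrane subunit that contacts complex III in supercomplexes, had 92.3, 119 and 118 CPM after siGLUT2, against 180, 182, 176 and 162 CPM in scrambled cells (-0.68 ± 0.11, adjusted p = 6.5e-05), with a wide gap between the groups.

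The distal ND5 part held 2 lower genes and 1 higher gene among only 5 (60% called, against 28.3% of all tested genes). NDUFB8 (ENSG00000166136, GRCh38 chr10:100523740-100530000, minus strand), a membrane subunit often used as an antibody target for complex I, had 111, 135 and 147 CPM after siGLUT2, against 223, 228, 233 and 237 CPM in scrambled cells. The scrambled libraries were tight and the siGLUT2 libraries all far under them, and NDUFB8 had the smallest adjusted p of the 44 genes (-0.81 ± 0.10, adjusted p = 3.1e-06). NDUFB7, which lies on the intermembrane-space side, had 57.5, 101 and 105 CPM after siGLUT2, against 143, 146, 146 and 126 CPM in scrambled cells (-0.68 ± 0.15, adjusted p = 0.00164). Its groups did not overlap, and siGLUT2 replicate 2 stood below the other siGLUT2 libraries. NDUFB3, a small single-helix subunit, had 127, 94.2 and 82.1 CPM after siGLUT2, against 88.9, 58.0, 82.6 and 57.5 CPM in scrambled cells (0.49 ± 0.16, adjusted p = 0.0276). It was the single called gene whose groups overlapped, and it was not called without scrambled replicate 2 (adjusted p = 0.114), scrambled replicate 4 (0.105) or siGLUT2 replicate 2 (0.169). NDUFB9, the gene with the highest CPM among the 44, had 426, 494 and 436 CPM after siGLUT2, against 452, 512, 474 and 452 CPM in scrambled cells (-0.06 ± 0.08, adjusted p = 0.619). NDUFB2 was not called either (-0.05 ± 0.09).

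The ND4 part (6 genes) and the ND1 part (3 genes) held 0 called genes by edgeR, DESeq2 and limma-voom; at an unadjusted p below 0.05 the ND4 part held 1, NDUFB4. NDUFB4 had 280, 304 and 270 CPM after siGLUT2, against 246, 235, 258 and 250 CPM in scrambled cells (0.20 ± 0.09, adjusted p = 0.0817), with no overlap. NDUFB6, the lowest NDUFB gene, had 39.6, 45.8 and 34.6 CPM after siGLUT2, against 36.3, 25.1, 29.6 and 33.5 CPM in scrambled cells (0.36 ± 0.18, adjusted p = 0.139), with siGLUT2 replicate 4 inside the scrambled range. The other ND4 genes, NDUFB1, NDUFB5, NDUFB10 and NDUFB11, had log2 fold changes from -0.23 to 0.31. NDUFB1 was called, as lower, without siGLUT2 replicate 2 (adjusted p = 0.0298), and NDUFB5, as higher, without siGLUT2 replicate 4 (0.0149). The ND1 genes NDUFA3, NDUFA8 and NDUFA13 had close estimates, from -0.25 to -0.22, and overlapped between groups.

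Among the 7 assembly factors NDUFAF4 alone was called, and the others overlapped between groups. With all libraries the 7 estimates were above 0 (median log2 fold change 0.32, range 0.02 to 0.80), but 4 of them lay below 0 in an alternative fit. NDUFAF2, NDUFAF3 and NDUFAF7 had -0.18, -0.26 and -0.10 without siGLUT2 replicate 3, and NDUFAF1 had -0.25 without siGLUT2 replicate 2. No assembly factor was called lower by edgeR, DESeq2 or limma-voom, and NDUFAF4 was also the single one with an unadjusted p below 0.05. NDUFAF4 (ENSG00000123545, GRCh38 chr6:96889313-96897881, minus strand) acts with NDUFAF3 on the early Q module. It had 54.2, 40.5 and 45.5 CPM after siGLUT2, against 30.3, 22.7, 24.8 and 29.98 CPM in scrambled cells (0.80 ± 0.18, adjusted p = 0.00155). Every siGLUT2 library was above every scrambled one. NDUFAF3, the assembly factor with the highest CPM, had 62.9, 111 and 72.7 CPM after siGLUT2, against 77.2, 83.4, 88.9 and 75.7 CPM in scrambled cells (0.02 ± 0.15, adjusted p = 0.952). Its siGLUT2 libraries stood on both sides of the scrambled range, and the CPM ratio of NDUFAF4 over NDUFAF3 (0.862, 0.365 and 0.626 after siGLUT2, and 0.392, 0.272, 0.279 and 0.396 in scrambled cells) overlapped between groups.

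NDUFAF1, which acts in the assembly of the ND2 part, was the lowest of the 44 genes, with 10.2, 7.06 and 2.66 CPM after siGLUT2, against 5.89, 7.20, 4.43 and 5.64 CPM in scrambled cells. These values rest on 60, 49 and 17 counts after siGLUT2 and on 32 to 60 counts in scrambled cells, and the gene was not called (0.20 ± 0.44, adjusted p = 0.784). The siGLUT2 libraries lay on both sides of the scrambled range. NDUFAF2, a relative of NDUFA12 that leaves before the complex is finished, had a log2 fold change of 0.05 ± 0.18. NDUFAF5 and NDUFAF7, which modify arginines of core subunits of the complex, had 0.32 ± 0.27 and 0.34 ± 0.37, and NDUFAF6 had 0.39 ± 0.27. These standard errors are as wide as, or not far under, the estimates themselves for NDUFAF5, NDUFAF6 and NDUFAF7.

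**Figure D2:**
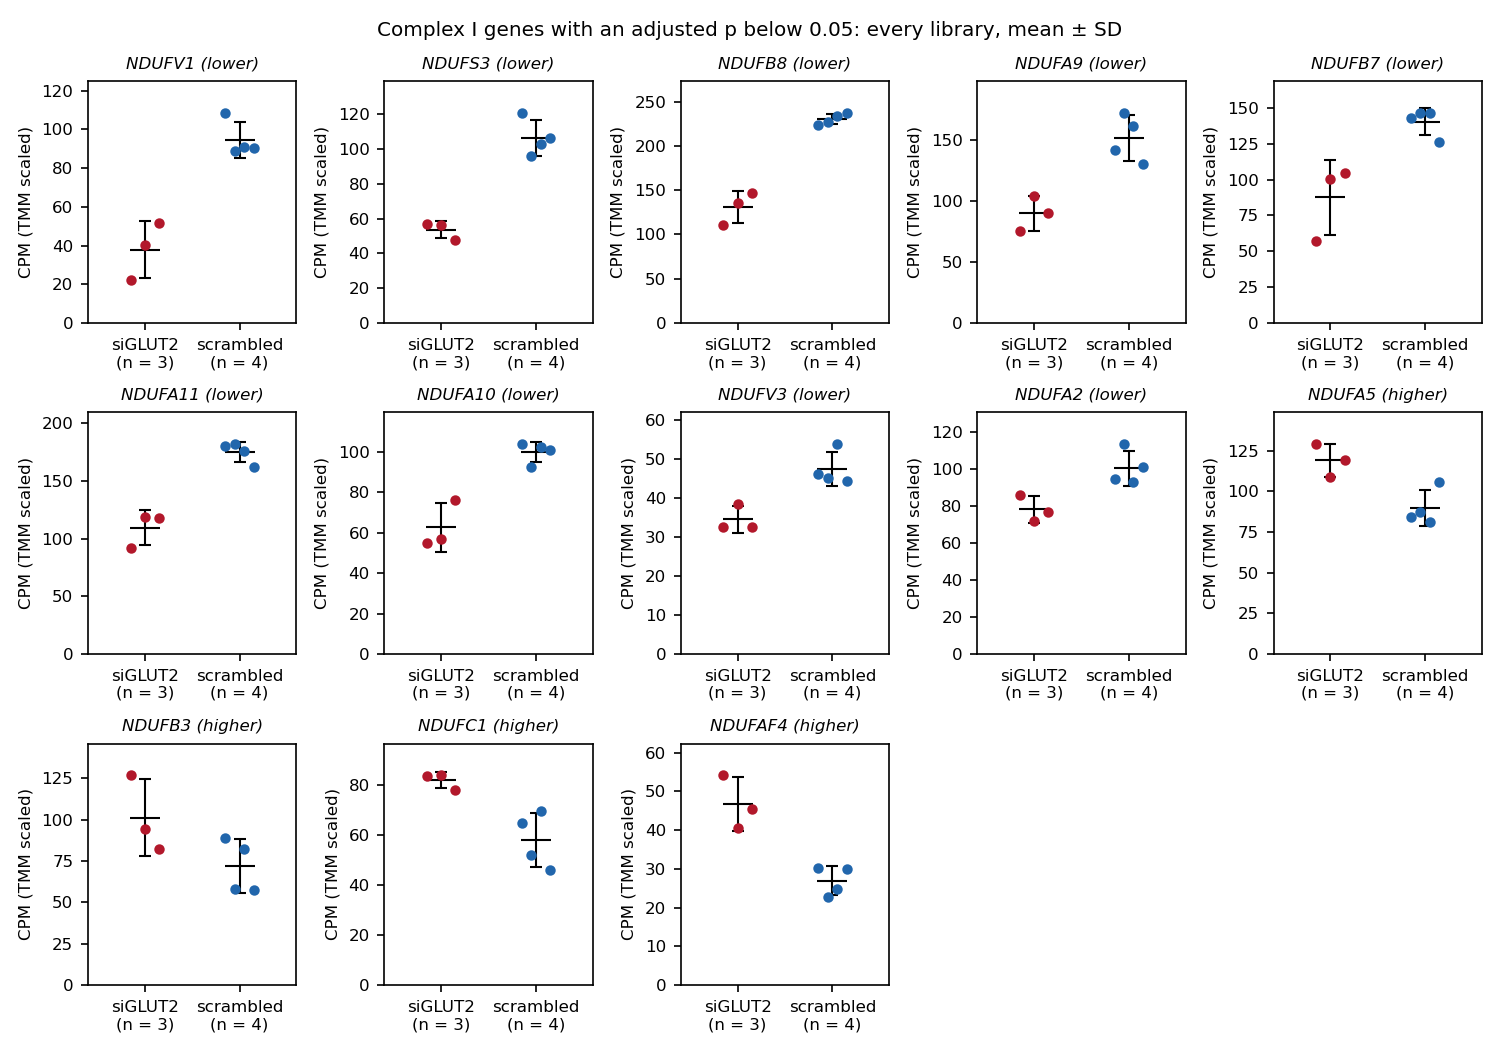
TMM-scaled CPM of the 13 called complex I genes in each of the 3 siGLUT2 libraries (red points) and 4 scrambled libraries (blue points), with mean ± SD in black. Points within a group run in the order of the replicate numbers. For 12 genes the groups do not overlap, and for NDUFB3 they do.

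Beside the group effect, siGLUT2 replicate 2 was the lowest of the siGLUT2 libraries for 20 of the 44 genes, replicate 4 for 18 and replicate 3 for 6. Among the 9 fallen genes replicate 2 was the lowest for 6, and over all genes called lower it was the lowest for 43.8%. Without siGLUT2 replicate 2, 9 genes were lower and 4 higher, of which 8 and 3 were among those called with all libraries. The median coefficient of variation over the 44 genes was 14.4% among the siGLUT2 libraries and 9.23% among the scrambled libraries. For all genes in the same CPM range it was 17.5% among the siGLUT2 libraries and 12.2% among the scrambled libraries, so the siGLUT2 libraries were the more spread for both.

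The libraries held 5881366 to 6914302 counts after siGLUT2 and 5654957 to 8455963 counts in scrambled cells. Fewer genes had at least 1 count after siGLUT2 (13632 ± 235) than in scrambled cells (14924 ± 82.2; exact two-sided permutation p = 0.0286, the smallest possible, and 0.0429 adjusted over 3 measures). For genes with at least 5 counts the difference was -441 (exact permutation p = 0.0857). Mitochondrially encoded genes took 7.33 ± 0.265% of counts after siGLUT2 and 5.17 ± 0.264% in scrambled cells (exact permutation p = 0.0286, adjusted 0.0429). With scaling and library sizes computed without mitochondrially encoded genes, the 9 lower and 4 higher genes were called as before. Of 13 proximal tubule markers, 9 were above 0, with a summed level of 141 to 154 CPM after siGLUT2 and 101 to 123 CPM in scrambled cells. Of these 9, 4 reached 1 CPM on average. GGT1 and MME among them were called higher, and DPP4 and SLC5A2 were not called. The remaining 4 of the 13, LRP2, SLC22A6 and SLC22A8 among them, were at 0. The 5 epithelial markers summed to 616 to 746 CPM after siGLUT2 and 1030 to 1150 CPM in scrambled cells. Most of that sum was KRT8, KRT18 and KRT19, which were called lower. EPCAM was not called (log2 fold change 0.01 ± 0.14, adjusted p = 0.965). CDH1 was not called either (-1.94 ± 0.91, adjusted p = 0.118). Its levels were low, 0.81 ± 0.71 CPM after siGLUT2 and 3.15 ± 1.39 CPM in scrambled cells, without overlap. The 3 endothelial markers were at 0, as were PTPRC and CD3E of the 4 leukocyte markers, whose sum was 25.9 to 28.5 CPM after siGLUT2 and 13.8 to 18.6 CPM in scrambled cells. Nearly all of that sum was CD68, with 25.9 ± 1.13 CPM after siGLUT2 and 14.99 ± 2.33 CPM in scrambled cells. The 4 fibroblast and pericyte markers, COL3A1 at 0, summed to 15.1 to 21.4 CPM after siGLUT2 and 8.97 to 13.2 CPM in scrambled cells. Of 5 markers of other nephron segments, 4 were at 0. The part of these differences in the complex I values was not tested.

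The summed CPM of the 44 nuclear genes was 4598, 5078 and 4762 after siGLUT2, against 5171, 5170, 5159 and 4995 in scrambled cells, so the groups overlapped through siGLUT2 replicate 3. The 7 mitochondrially encoded complex I subunits, which form the membrane core, summed to 38073, 36911 and 39193 CPM after siGLUT2, against 23835, 25040, 23822 and 26916 CPM in scrambled cells, without overlap. The sum of the mitochondrial genes over that of the nuclear genes was 8.28, 7.27 and 8.23 after siGLUT2, against 4.61, 4.84, 4.62 and 5.39 in scrambled cells. Mitochondrial and nuclear transcripts need not be captured alike by a 3' method, so the ratio is to be read across libraries only. Of the mitochondrial subunits 3 rose, MT-ND3 by 1.29 ± 0.06, MT-ND2 by 0.69 ± 0.06 and MT-ND1 by 0.34 ± 0.07 on the log2 scale (adjusted p = 2.7e-12, 6.3e-08 and 0.000997), and the other 4 were not called.

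**Figure D3:**
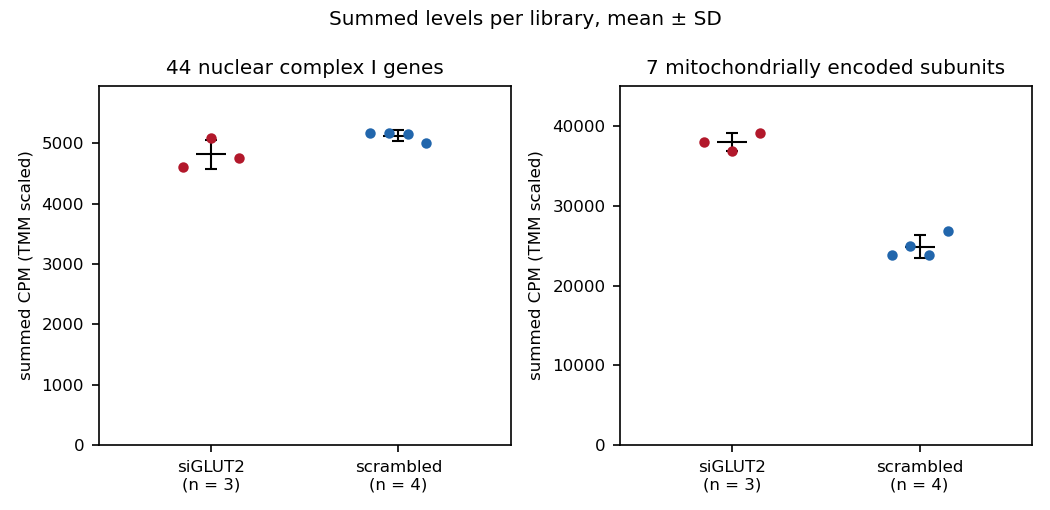
Summed TMM-scaled CPM of the 44 nuclear complex I genes (left) and of the 7 mitochondrially encoded subunits (right) in each siGLUT2 library (red, n = 3) and scrambled library (blue, n = 4), with mean ± SD in black. The nuclear sums overlap between the groups, and the mitochondrial sums do not.

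Of 16 complex I assembly genes without an NDUF symbol, 1 rose and 2 fell. With DESeq2, with limma-voom and with no low-count filter 3 fell, and 4 fell without siGLUT2 replicate 2. A single one fell where siGLUT2 replicate 4 or either of the scrambled replicates 1 and 2 was left out. TIMMDC1, which works on the ND1 part, fell to 118 ± 7.26 CPM after siGLUT2, against 177 ± 9.15 CPM in scrambled cells (-0.59 ± 0.10, adjusted p = 0.000111). COA1, an inner membrane protein that acts with the assembly of the membrane arm, had 51.3 ± 4.53 CPM after siGLUT2 and 32.5 ± 4.16 CPM in scrambled cells (0.66 ± 0.16, adjusted p = 0.00362). NUBPL, which delivers iron-sulfur clusters to complex I, had 19.0 ± 2.22 CPM after siGLUT2 and 29.4 ± 7.76 CPM in scrambled cells (-0.63 ± 0.22, adjusted p = 0.0375), and was not called without scrambled replicate 1 (adjusted p = 0.107), scrambled replicate 2 (0.178) or siGLUT2 replicate 4 (0.0883).

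Counts in the other respiratory complexes went both ways except in complex III, where 5 of 15 genes fell and 0 rose by edgeR, DESeq2 and limma-voom. Among these, UQCRQ and CYC1 fell by 0.66 ± 0.10 and 0.64 ± 0.15 on the log2 scale (adjusted p = 2e-05 and 0.002). Complex II had 2 higher and 1 lower of 8, the nuclear subunits of complex IV 1 higher and 4 lower of 11, and those of ATP synthase 3 higher and 2 lower of 17. The balance turned to 1 higher and 2 lower in complex II without siGLUT2 replicate 2 or scrambled replicate 2, and to 3 higher and 4 lower in ATP synthase without siGLUT2 replicate 2. In other fits with 1 library left out, complex II had at most 2 higher and 1 lower, and ATP synthase had 1 higher and 1 lower without siGLUT2 replicate 3. COX6A1 of complex IV fell by 1.71 ± 0.14 (adjusted p = 4.2e-09). Of 10 genes for other routes of NADH and electrons into the quinone pool, 2 rose and 0 fell, again by all 3 tools, but 1 rose without scrambled replicate 2 or scrambled replicate 4, and 1 fell without siGLUT2 replicate 4. SQOR, the sulfide oxidoreductase that feeds electrons to ubiquinone past complex I, rose to 50.5 ± 7.11 CPM after siGLUT2, against 15.4 ± 0.754 CPM in scrambled cells (1.71 ± 0.18, adjusted p = 2.5e-07). Of 10 regulators of mitochondrial biogenesis, 2 rose and 1 fell, but 0 were called without siGLUT2 replicate 3. Leaving out siGLUT2 replicate 2 or 4, or scrambled replicate 1, 2 or 3, left 1 that rose and 1 that fell. None of these lists was tested as a set.

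**Figure D4:**
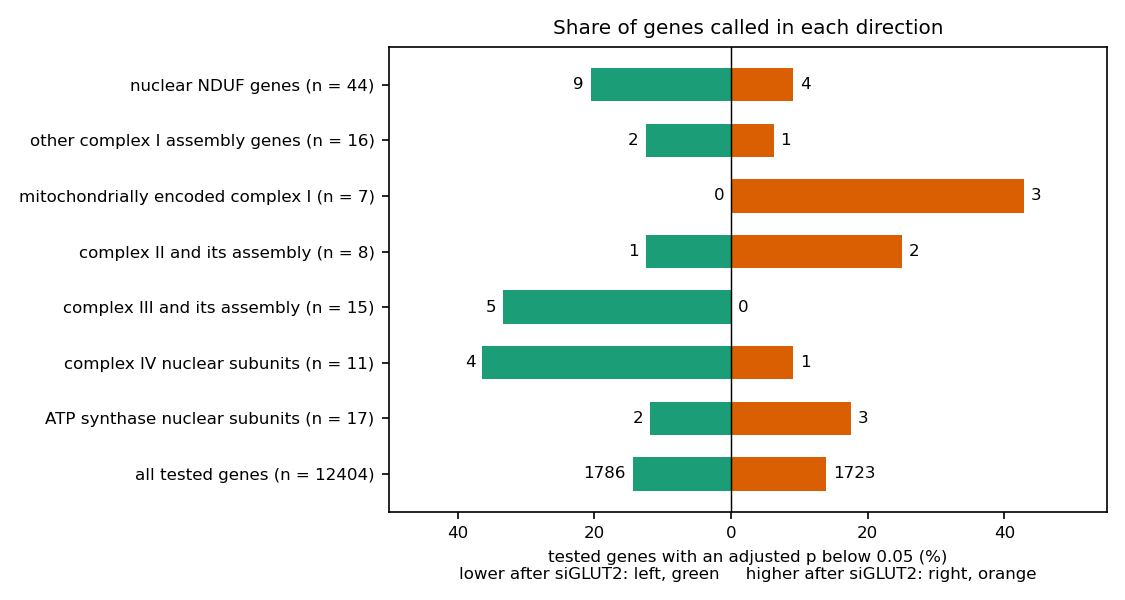
Percentage of tested genes called lower (left, green) and higher (right, orange) after siGLUT2 in the nuclear complex I genes, in related lists and over all tested genes, with the number of genes beside each bar. The nuclear complex I genes had 20.5% lower and 9.09% higher, against 14.4% and 13.9% of all tested genes.

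Promoter sequence was set beside these values, because nuclear respiratory genes are classically described as targets of NRF1, of the ETS factor GABPA and of YY1. The window from 250 bases before to 50 bases after the transcription start was found for 38 of the 44 genes in RefSeq (GRCh38.p14). Both strands were searched for GCATGCG (the NRF1 core), CCGGAAG (the ETS and GABPA core) and GATGGCG (the YY1 core). GCATGCG stood in 7 of 38 windows (18.4%), against 4.13% of all 27305 promoters and 6.77% of the 9973 promoters of tested genes. CCGGAAG stood in 6 (15.8%), against 10.67% of all and 20.05% of tested promoters, and GATGGCG in 5 (13.2%), against 4.35% and 7.93%. For 5 of the 7 windows with GCATGCG, matches on both strands overlapped, because most of this word is its own reverse complement. Among the 9 fallen genes, 0 windows held GCATGCG, 2 held CCGGAAG (NDUFB7 and NDUFS3) and 1 held GATGGCG (NDUFA9). Among the 4 risen genes, only the window of NDUFAF4 held any of the words. The NDUFA5 window (chr7:123601602-123601901) lies upstream of the annotated gene (chr7:123536997-123558255, minus strand) and wholly outside it. The lack of a word in that window therefore does not bear on the start of NDUFA5 as annotated here. The windows below belong to the fallen genes with the largest changes, NDUFV1 and NDUFS3, and to NDUFAF4, the most risen gene. Each is written 5′ to 3′ on the strand of its gene, and capitals mark any of the 3 words or its reverse complement.
NDUFV1 (GRCh38.p14 chr11:67606686-67606985, plus strand): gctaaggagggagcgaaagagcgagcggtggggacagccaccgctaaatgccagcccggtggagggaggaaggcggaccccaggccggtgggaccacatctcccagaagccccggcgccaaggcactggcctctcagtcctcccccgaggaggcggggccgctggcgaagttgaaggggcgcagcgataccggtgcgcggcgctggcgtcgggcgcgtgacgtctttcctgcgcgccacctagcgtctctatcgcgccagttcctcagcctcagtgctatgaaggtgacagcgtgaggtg
NDUFS3 (GRCh38.p14 chr11:47578824-47579123, plus strand): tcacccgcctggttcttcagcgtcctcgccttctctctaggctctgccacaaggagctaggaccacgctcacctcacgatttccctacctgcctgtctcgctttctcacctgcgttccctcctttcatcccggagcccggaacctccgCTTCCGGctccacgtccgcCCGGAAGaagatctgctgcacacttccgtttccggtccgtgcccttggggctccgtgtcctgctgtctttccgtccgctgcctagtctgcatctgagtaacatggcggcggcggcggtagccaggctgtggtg
NDUFAF4 (GRCh38.p14 chr6:96897842-96898141, minus strand): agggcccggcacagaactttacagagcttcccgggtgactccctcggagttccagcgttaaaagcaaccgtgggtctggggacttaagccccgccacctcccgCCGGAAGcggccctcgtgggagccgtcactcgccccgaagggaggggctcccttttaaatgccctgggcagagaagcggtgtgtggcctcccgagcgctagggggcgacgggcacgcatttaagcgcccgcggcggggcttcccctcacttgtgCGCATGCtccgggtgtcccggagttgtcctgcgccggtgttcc
The NDUFV1 window holds none of the words, which says only that these letters are absent from it. The NDUFS3 window holds CCGGAAG 102 bases before the start on the opposite strand and 83 bases before it on the strand of the gene, counted to the first base of the match, and the NDUFAF4 window holds CCGGAAG 147 bases before the start and GCATGCG on the opposite strand, beginning at base 8 of the transcribed side. A match of letters is not a measured binding site.

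The 3' UTRs were also searched for GACCTTA and ACCTTAA on the transcript strand, words that overlap each other and that came from an earlier scan of these same fold changes, so that they give no independent support. In the longest 3' UTR annotated by GENCODE 29, 4 of the 44 genes held 1 of the words (9.09%), against 15.4% of the 11621 tested genes with a 3' UTR of at least 50 bases. The shares were 22.1% of all genes called lower and 11.6% of all genes called higher. The median 3' UTR was 554.5 bases for the 44 genes and 1442 bases for tested genes. The 4 sites are shown on the transcript strand with the word in capitals, because they are the matches in the set.
NDUFA10: aaagcaaagGACCTTAtaacagcaa
NDUFA9: atatccatcACCTTAAacatttacc
NDUFA5: ctaaaagggGACCTTActggtgttt
NDUFA3: tcttcctcaACCTTAAtctgcagga
NDUFA10 and NDUFA9 fell, NDUFA5 rose, and NDUFA3 was not called (-0.25 ± 0.18). The 3' UTRs of NDUFA10, NDUFA9 and NDUFA5 had 3746, 7209 and 5122 bases. The fallen genes NDUFV1, NDUFS3 and NDUFB8 held neither word, in 3' UTRs of 96, 846 and 152 bases. The fallen genes NDUFV3, NDUFA11, NDUFA2 and NDUFB7 held neither word either, in 4283, 1728, 334 and 55 bases.

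How reads were assigned bears on part of the set. Of the 44 genes, 23 overlap a gene on the opposite strand and 11 a gene on the same strand. Overlapping genes without reads are included: those of NDUFV1, NDUFA11 and NDUFA9 had 0 counts. For NDUFA10, NDUFB7, NDUFV3, NDUFAF4 and NDUFA5 no overlapping gene was found. The strand setting of the counting is not given in the sources used here, so reads of a gene and of an overlapping gene cannot be told apart. NDUFS3 overlaps CELF1, whose counts rose (0.25, adjusted p = 0.0326), and PTPMT1, which was not called. NDUFB8 overlaps HIF1AN and NDUFC1 overlaps NAA15, neither of them called. NDUFA2 overlaps IK, which fell by 0.36 (adjusted p = 0.0263), and NDUFB3 overlaps FAM126B, which rose by 1.01 (adjusted p = 0.00642), in each case in the direction of the complex I gene. GENCODE 29 annotates pseudogenes for 18 of the 44 genes, among them 12 for NDUFA5, 4 for NDUFAF4, 2 for NDUFB8 and 1 for NDUFA9. Of these pseudogenes 0 have a row in the table, and how their reads were counted is not known.

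Of the 13 calls, 8 held in each of 17 alternative fits at the same threshold: NDUFV1, NDUFS3, NDUFB8, NDUFA9, NDUFB7, NDUFA11 and NDUFA10 as lower and NDUFAF4 as higher. The calls of NDUFV3, NDUFA2, NDUFA5, NDUFB3 and NDUFC1 were lost in at least 1 fit. Without scrambled replicate 2, or without scrambled replicate 4, 7 genes were lower and 2 higher, and without siGLUT2 replicate 4, 9 were lower and 6 higher.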

How the data were processed

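RNA of HK-2 cells (125 ng a sample) went to a commercial service for 3' digital mRNA-seq, read single-end, per the labels' protocols. The authors deposited unnormalised whole-number counts by Ensembl gene for 7 libraries. The submitters' processing notes list STAR, HTSeq, edgeR and hg38, with neither version nor role. The annotation release, strandedness and molecular identifiers were not given in the sources used here. Each value column carried the title of 1 sample, with 0 unmapped, and the titles give the groups.

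The main test was run in R 4.3.3 with edgeR 4.0.16. Genes passed filterByExpr at a minimum count of 10 and a minimum total of 15, libraries were scaled by TMM, dispersions were estimated robustly, and glmQLFTest had the group as its single term. Benjamini-Hochberg adjustment covered all 12404 genes that passed, with a threshold of 0.05. SE is the absolute log2 fold change divided by the root of F. Library measures were compared by exact permutation over 35 splits. The p-values reflect variation among libraries of 1 cell line, which the labels call biological replicates. No pair of libraries of the same group agreed within sampling noise, and pairs across the groups were not checked. Alternatives were DESeq2 1.42.0, limma-voom (limma 3.58.1), other scalings and filters, non-robust estimation, a replicate block, each library left out and a threshold of 0.01. The script was tested on simulated data.

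The members, modules and lists were chosen with earlier results of these data known. By the rule for named genes, values in every library are given for SLC2A2, each called member, the 7 core subunits and the members with the highest and lowest mean CPM of each letter group, and the genes named from a pathway list are among its 4 smallest adjusted p-values. NDUFB4 and the ratios of gene pairs were picked with their values in view. Counts and sums also cover a core subunit and a marker whose own values are not reported here. Positions are those of GENCODE 29 on GRCh38, and promoters those of RefSeq.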

Additional observations from a re-analysis of the deposited data

Results flagged for a closer look

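In 70 groups of 4 scrambled libraries, a library that stood apart from the other 3 was looked for by its gap relative to the range of the group, a rule that chance meets in about 1 in 20 groups. It was met by 4. NDUFV1 had 108.5 CPM in scrambled replicate 1, against 88.75 to 90.69 CPM in the other scrambled libraries. The siGLUT2 libraries lay far below all of these. NDUFAF2 had 50.72 CPM in scrambled replicate 3, against 42.86 to 43.45 CPM. NDUFAF6 had 8.875 CPM in scrambled replicate 2, against 14.55 to 15.56 CPM. ESRRA, a nuclear receptor that regulates mitochondrial genes, had 16.95 CPM in scrambled replicate 3, against 21.3 to 21.59 CPM, and its rise was not called without that library (adjusted p = 0.0625), without siGLUT2 replicate 3 (0.0528) or without siGLUT2 replicate 4 (0.0612).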

How the results depend on the processing

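Over 18 alternatives, called complex I genes kept their direction in all fits, whereas 12 genes that were not called turned sign in 20 of the 792 values. Of the 792, 764 kept their side of the threshold, 21 lost a call and 7 gained one. DESeq2, limma-voom and the other scalings called the same 9 lower and 4 higher genes. With each library left out in turn, the complex I genes had 7 to 9 lower and 2 to 6 higher, all genes 1404 to 1963 lower and 1384 to 1815 higher, and the pathway lists 11 to 20 lower and 9 to 13 higher, against 15 and 14 with all libraries. The adjusted p of SLC2A2 was 0.0121 to 0.0538. At an adjusted p below 0.01, 1 complex I gene was higher and 7 were lower, 1097 and 1167 of all genes were higher and lower, and the pathway lists had 9 higher and 9 lower. The difference in detected genes was -1292.2 at 1 count and -441 at 5 counts (exact permutation p = 0.0857). The replicate numbers did not pair the libraries (same-number correlations of deviations 0.00953, 0.0152 and -0.00323). With a replicate block, 8 complex I genes were lower and 3 higher; NDUFV3 (adjusted p = 0.084), NDUFA5 (0.053) and ESRRA (0.0586) were not called, and of the biogenesis regulators 0 were. The cause of these changes was not tested.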

Other observations

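The genes of the neighbouring complexes described here are ones whose calls held with each library left out in turn. In complex III, UQCC3, an assembly factor, fell to 17.7 ± 6.41 CPM after siGLUT2, against 36.6 ± 11.03 CPM in scrambled cells (log2 fold change -1.05 ± 0.26, adjusted p = 0.00333). UQCRC1, a core protein of complex III, fell by 0.54 ± 0.15 on the log2 scale (adjusted p = 0.00803). In complex IV, COX8A and COX5B fell by 0.92 ± 0.12 and 0.54 ± 0.10 (adjusted p = 2.8e-06 and 0.000229), and NDUFA4 rose by 0.45 ± 0.08 (adjusted p = 0.000179). In ATP synthase, ATP5MC1 fell by 0.70 ± 0.11 (adjusted p = 4e-05). It is not the only gene for the membrane ring subunit, and the others, at higher CPM, were not called. ATP5MK, a small membrane subunit of ATP synthase, rose by 0.48 ± 0.12 (adjusted p = 0.00399) with overlapping groups. SDHAF2, which attaches flavin to complex II, had 37.9 ± 1.11 CPM after siGLUT2 and 22.0 ± 2.65 CPM in scrambled cells (0.78 ± 0.18, adjusted p = 0.0022). The adjusted p-values are those of edgeR, and differences between these genes were not tested.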
